A study of Homo sapiens with 12 samples.

Results

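ATP-binding cassette (ABC) genes were followed in HK-2 cells, an immortalised line of human renal proximal tubule epithelium, treated with the agent labelled Aa at a low dose. The genes were all those to which the array annotation gives 1 gene symbol made of ABC, a subfamily letter from A to G and a number. The array carried 96 such probe sets for 42 genes. For 21 of the 42 genes at least 1 probe set had a mean log2 value of 4 or more over the 12 arrays, and these were tested among 10791 genes in all. The other 21 genes lay below that filter.

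ABC proteins bind and hydrolyse ATP, and most use the energy to move lipids, peptides, metal complexes, conjugated metabolites or drugs across a membrane. In the kidney, transporters of subfamilies B, C and G sit in the apical or basolateral membrane of proximal tubule cells and carry drugs, urate and conjugates towards urine or blood. Members of subfamilies E and F have the ATP-binding domains but no membrane-spanning part, and act in translation and ribosome recycling.

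The groups were HK-2 cells given low-dose Aa for 24 h, control cells at 24 h, cells given low-dose Aa for 48 h and control cells at 48 h, with 3 arrays each. Control cells received the vehicle, and all groups shared one hormonally supplemented medium. The sources used here give neither the numeric dose nor the vehicle nor the name behind Aa. The study formed one piece of a larger search for toxicity signatures, and the question here was which transporter genes differed after exposure and whether the difference depended on time. Because HK-2 is a single immortalised line, all 12 arrays report on 1 genetic background. Arrays of a group are labelled as biological replicates, with nothing on whether they came from separate cultures. The p-values therefore cover the spread between these samples only, which may be technical.

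The arrays were alike in level: array medians ran between 2.93 and 3.01 on the log2 scale, and Pearson's r between arrays of a group was 0.994 to 0.997. Of 14 proximal tubule markers on the array, 4 passed the filter (SLC3A1, CDH6, PAX8 and DPP4), while the defining markers LRP2, CUBN, AQP1 and SLC34A1 did not. All 4 general epithelial markers passed, as did 3 of 7 fibroblast markers (COL1A1, DCN and LUM). None of the markers of distal nephron, podocyte, endothelium or leukocytes passed. The mean of 3 control probe sets for 28S ribosomal RNA was 7.03 to 7.44 on Aa arrays at 24 h against 6.30 to 6.45 on control arrays, and 7.30 to 7.80 on Aa arrays at 48 h against 6.60 to 6.91 on control arrays. The part of that separation in the gene results was not tested.

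The promoters of ABCA1, ABCD4 and ABCC4 are shown for their calls in the fit without the replicate number. There ABCA1 and ABCD4 rose at both times and ABCC4 was the only member that fell. With the replicate number in the model 4 members were lower at each time. Each run is the 250 bases before the gene's start in the RefSeq annotation of GRCh38.p14, read 5′ to 3′ along the gene's own strand, which is the minus strand for all 3. Capitals mark matches on either strand to 7 motifs. They are the E-box spelled CACGTG, the core of the antioxidant response element, TGACNNNGC, and the core of the xenobiotic response element, GCGTG. The others are the GC box, spelled GGGCGG, the CCAAT box, the TATA box, spelled TATAAA, and a direct repeat of hormone receptor sites with 4 spacing bases. No marked site overlaps another in these windows. The direct repeat was spelled with the ABCA1 sequence in view. The ABCA1 window is chr9:104928156-104928405, that of ABCD4 is chr14:74302935-74303184 and that of ABCC4 is chr13:95301452-95301701.
ABCA1: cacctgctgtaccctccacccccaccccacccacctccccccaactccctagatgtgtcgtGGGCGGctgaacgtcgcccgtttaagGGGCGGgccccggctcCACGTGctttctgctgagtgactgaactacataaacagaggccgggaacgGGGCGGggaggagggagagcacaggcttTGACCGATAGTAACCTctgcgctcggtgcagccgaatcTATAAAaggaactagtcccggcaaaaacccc
ABCD4: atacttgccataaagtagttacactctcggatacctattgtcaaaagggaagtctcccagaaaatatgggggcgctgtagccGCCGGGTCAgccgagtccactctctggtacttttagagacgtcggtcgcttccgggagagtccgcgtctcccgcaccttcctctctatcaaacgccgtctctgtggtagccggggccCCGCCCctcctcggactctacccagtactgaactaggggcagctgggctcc
ABCC4: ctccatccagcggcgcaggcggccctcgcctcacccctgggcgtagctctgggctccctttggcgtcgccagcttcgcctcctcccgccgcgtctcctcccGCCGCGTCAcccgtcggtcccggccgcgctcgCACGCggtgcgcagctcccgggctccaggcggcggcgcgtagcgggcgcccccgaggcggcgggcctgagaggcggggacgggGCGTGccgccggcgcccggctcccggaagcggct

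The ABCA1 window held 6 sites: 3 GC boxes, 1 E-box, 1 TATAAA and 1 direct repeat. The ABCD4 window held 1 antioxidant response core and 1 GC box. In the ABCC4 window there were 1 antioxidant response core and 2 xenobiotic response cores, and its GC content was 80.4%, against 61.6% for ABCA1, 58% for ABCD4 and a median of 58% over all promoters. Most of these letters are common. Of 35116 promoter windows of the same annotation, 42.6% held GGGCGG, 32.2% GCGTG, 32% CCAAT, 10.9% TGACNNNGC, 10.7% TATAAA and 6.34% CACGTG. The direct repeat occurred in 11 windows (0.0313%). These matches describe the letters only.

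At 24 h, 3 of the 21 ABC genes tested rose in Aa cells and none fell. They were ABCA1, ABCC3 and ABCD4. This share, 14.3%, lies below the 23.1% of all tested genes that were called at that time (10.3% higher and 12.8% lower), by limma with a Benjamini-Hochberg adjusted p under 0.05. At 48 h the same 3 genes rose again, ABCB6, ABCF1 and ABCF3 were added, and ABCC4 fell. The 7 calls make 33.3% of the members, near the 37.8% of all tested genes (17.8% higher and 20.1% lower). With the replicate number in the model 5 members were higher and 4 lower at 24 h, and 7 higher and 4 lower at 48 h, which is 42.9% and 52.4% of the members, against 41.3% and 54.8% of all genes. In both models the members' share lay near or below that of all genes.

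The median log2 difference over the 21 genes was -0.11 at 24 h and 0.03 at 48 h, against -0.02 and 0.00 over all genes tested. Aa and control arrays did not overlap for 5 of the 21 genes at 24 h (23.8%, against 40.5% of all genes) and for 8 at 48 h (38.1%, against 48.4%). The direction was the same at both times for 16 of the 21. None of the members was called for a difference between the 48 h and the 24 h effect by limma, against 0.825% of all genes, and 1 member, ABCB6, had an unadjusted p under 0.05.

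**Figure D1:**
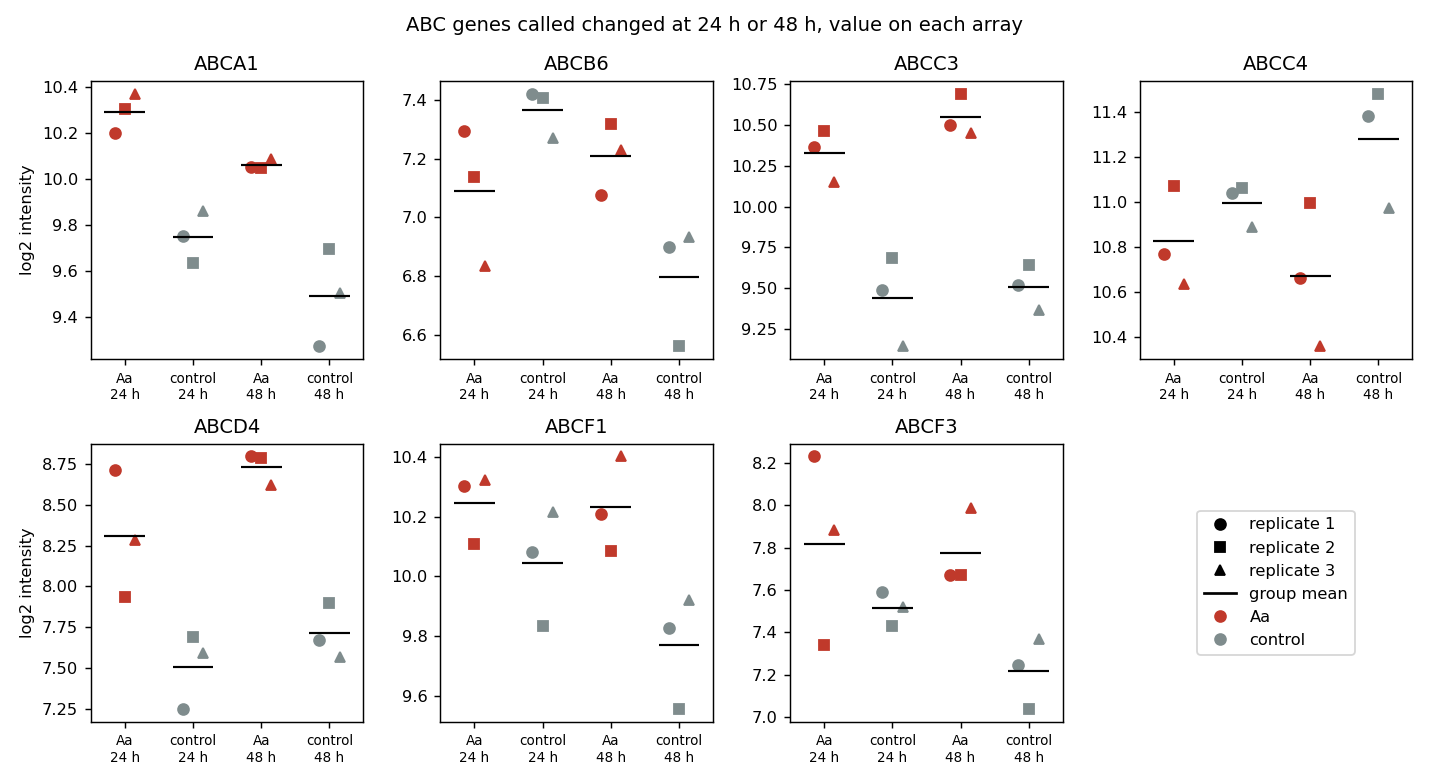
Log2 intensity on each of the 12 arrays for the 7 ABC genes called at 24 h or 48 h, with Aa in red, control in grey, replicate numbers as marker shapes and group means as bars; each panel has its own axis. ABCA1, ABCC3 and ABCD4 have all Aa arrays above all control arrays at both times, and ABCC4 has overlapping groups at 48 h.

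Of the lipid transporters of subfamily A, ABCA1 rose at both times. ABCA1 sits in the plasma membrane and passes cholesterol and phospholipid to apolipoprotein A-I, and liver X receptors induce it. It read 10.20, 10.30 and 10.37 on Aa arrays at 24 h, against 9.75, 9.63 and 9.86 on control arrays. At 48 h it read 10.05, 10.05 and 10.09 on Aa arrays, against 9.27, 9.70 and 9.50 on control arrays. Every Aa array was above every control array of its time. The difference was 0.54 (SE 0.11, 1.45-fold, limma adjusted p = 0.00677) at 24 h and 0.57 (SE 0.11, 1.49-fold, adjusted p = 0.00309) at 48 h. A second ABCA1 probe set gave 0.35 (adjusted p = 0.0968) and 0.46 (adjusted p = 0.0241). Without replicate 1 in all groups the adjusted p was 0.0589 at 24 h and 0.0637 at 48 h, and without replicate 3 it was 0.0856 at 24 h. The other 4 members of the cholesterol group, ABCG1, ABCG4, ABCG5 and ABCG8, which are partners or relatives of ABCA1 in sterol export, were below the filter.

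ABCA12 loads glucosylceramides into lamellar granules of skin keratinocytes. Its values were 7.03, 8.005 and 6.43 on Aa arrays at 24 h, against 7.85, 8.77 and 8.09 on control arrays. At 48 h they were 7.02, 8.38 and 7.20 on Aa arrays, against 8.49, 9.48 and 8.50 on control arrays. The lower values were on the Aa side in all 3 numbered pairs at both times, but arrays of one group differed widely, and the groups were apart at 48 h alone. The difference of -1.08 (SE 0.47) at 24 h had a limma adjusted p of 0.121, and that of -1.29 (SE 0.47) at 48 h one of 0.05002, just over the threshold. With the replicate number in the model they were 0.00124 and 0.000284. ABCA12 had the most negative difference of the 21 genes at both times.

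The remaining subfamily A genes were not called. ABCA2, a lipid transporter of endosomes and lysosomes, was the weakest gene tested, with a mean log2 value of 4.21, and differed by -0.14 and -0.16 at 24 h and 48 h. ABCA3, which fills the lamellar bodies of lung alveolar cells with surfactant lipid, differed by -0.11 and -0.39 (adjusted p = 0.144 at 48 h). ABCA7, a phospholipid transporter, differed by -0.31 and -0.21, and its Aa arrays at 24 h all lay below the control arrays (adjusted p = 0.23). A further 6 genes of the subfamily were below the filter (ABCA4, ABCA5, ABCA6, ABCA8, ABCA9 and ABCA13).

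Among 8 drug efflux genes, 6 were measured. ABCC3 rose at both times and ABCC4 fell at 48 h, while ABCB1, ABCC1, ABCC5 and ABCC10 were not called at either time. ABCC2 and ABCG2, which pump conjugates and drugs across the apical membrane of the proximal tubule, were below the filter, with means of 2.38 and 2.18. The called share was 16.7% at 24 h and 33.3% at 48 h, against 23.1% and 37.8% of all genes. With the replicate number in the model the group had 1 gene higher and 3 lower at each time (66.7%, against 41.3% and 54.8% of all genes).

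ABCC3 (MRP3) exports glucuronides and bile salts across the basolateral membrane. It read 10.36, 10.46 and 10.15 on Aa arrays at 24 h, against 9.49, 9.68 and 9.14 on control arrays. At 48 h the values were 10.50, 10.69 and 10.45 on Aa arrays, against 9.52, 9.64 and 9.36 on control arrays. No control array reached an Aa array. The difference was 0.89 (SE 0.15, 1.85-fold, limma adjusted p = 0.00207) at 24 h and 1.04 (SE 0.15, 2.05-fold, adjusted p = 0.000513) at 48 h. Without replicate 1 the adjusted p at 24 h was 0.0752.

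The 5 ABCC3 probe sets past the filter did not move together. Over all 22515 probe sets tested limma called 22.6% at 24 h and 33.2% at 48 h. A second probe set rose by 0.93 (limma adjusted p = 0.000475) and 1.12 (adjusted p = 0.000111), close to the one used. Another, of mean 6.16, fell by 0.79 (adjusted p = 0.033) at 24 h and by 0.99 (adjusted p = 0.00822) at 48 h. The last 2 differed by 0.15 and -0.05 at 24 h and by 0.27 and -0.11 at 48 h and were not called. The rise of ABCC3 is therefore that of its pair of brightest probe sets. Averaged over the 5, the gene's difference was 0.23 (adjusted p = 0.13) at 24 h and 0.27 (adjusted p = 0.0571) at 48 h.

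**Figure D2:**
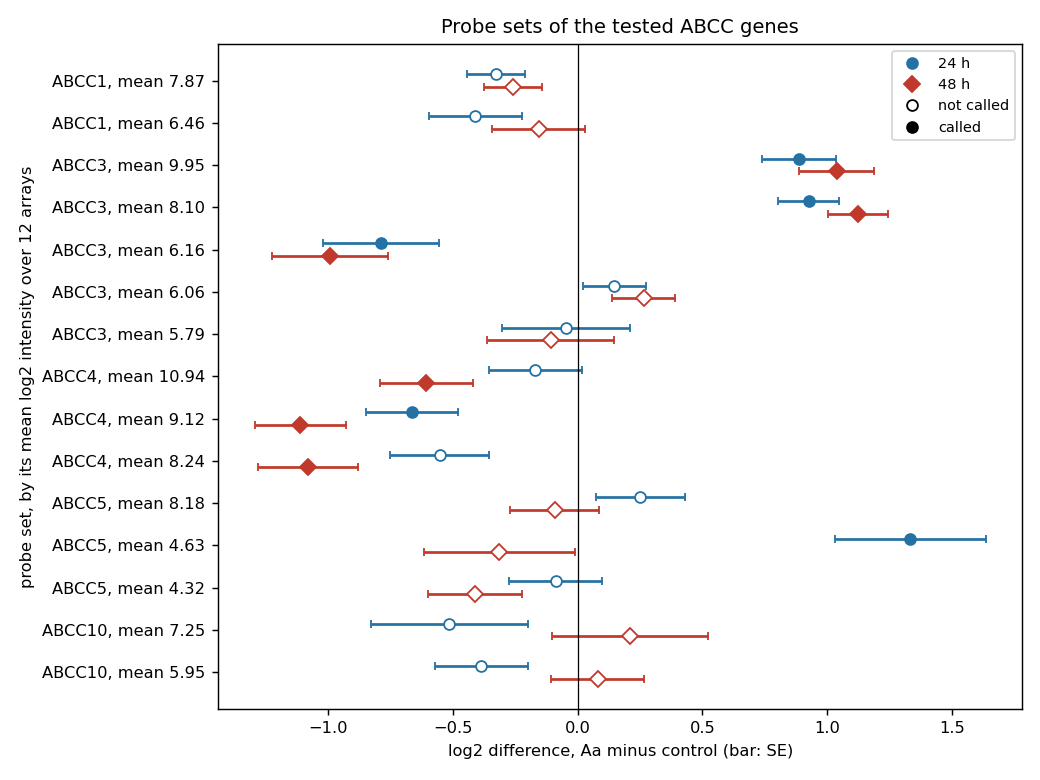
Log2 difference, Aa minus control, with its SE for each probe set past the filter of the 5 subfamily C genes tested, at 24 h (circles) and 48 h (diamonds), filled where called. The 3 ABCC4 probe sets lie left of 0 at both times, whereas those of ABCC3 lie on both sides.

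ABCC4 (MRP4) carries cyclic nucleotides, urate and organic anions across the apical membrane of the proximal tubule. It was the only member called lower in the fit without the replicate number. At 48 h it read 10.66, 10.995 and 10.36 on Aa arrays, against 11.38, 11.48 and 10.97 on control arrays. The groups overlapped slightly, since the replicate 2 Aa array exceeded the replicate 3 control array, but in each numbered pair the Aa array was the lower. The difference was -0.61 (SE 0.18, 1.52-fold lower, limma adjusted p = 0.0246), and without replicate 1 its adjusted p was 0.228. At 24 h ABCC4 read 10.77, 11.07 and 10.64 on Aa arrays, against 11.04, 11.06 and 10.89 on control arrays. That difference, -0.17 (SE 0.18, adjusted p = 0.557), was smaller than the spread.

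The other 2 ABCC4 probe sets gave larger falls at 48 h, of 1.11 (limma adjusted p = 0.00129) and 1.08 (adjusted p = 0.00241) on the log2 scale. At 24 h they differed by -0.66 (adjusted p = 0.0254, called) and -0.55 (adjusted p = 0.0724). The summed linear level of the 14 proximal tubule markers was 6785 to 10580 on Aa arrays at 48 h, against 11783 to 14094 on control arrays, and that of the 7 fibroblast markers 3095 to 4297 against 4540 to 5407. At 24 h the sums overlapped for both lists: 9656 to 13393 on Aa arrays against 11839 to 15675 on control arrays for tubule, and 3984 to 5190 against 4765 to 6624 for fibroblast markers. The summed level of the 4 epithelial markers was 20666 to 24126 on Aa arrays at 48 h, against 19348 to 21260 on control arrays. At 24 h that sum was lower on Aa arrays without overlap, 18942.5 to 21853.6 against 21905.8 to 25030.3 on control arrays. All 4 epithelial markers had negative differences at 24 h, and limma called 0 of them. Sums on the linear scale weigh bright genes most, and markers below the filter add little. In control cells at 48 h the brightest were CDH6 of the tubule list (mean 12.49) and DCN of the fibroblast list (11.88). Gene by gene the lists were uneven. Of the 4 tubule markers tested 3 fell at 48 h (75%, against 37.8% of all genes called and 20.1% called lower). The differences were -1.48 for CDH6 (limma adjusted p = 0.000975), -1.87 for SLC3A1 (adjusted p = 0.0118) and -0.45 for PAX8 (adjusted p = 0.0101). DPP4 differed by 0.13 (adjusted p = 0.637). No fibroblast marker was called by limma at 48 h. There DCN differed by -0.45 (adjusted p = 0.0987, unadjusted p = 0.0456), LUM by -0.22 (adjusted p = 0.2) and COL1A1 by 0.35 (adjusted p = 0.285). At 24 h COL1A1 was called lower, with a difference of -0.85 (limma adjusted p = 0.0276). It was 1 of 3 fibroblast markers tested (33.3%, against 23.1% of all genes). The part of these markers in the ABCC4 fall was not tested. In bulk RNA, fewer cells that express a gene and less of its RNA per cell cannot be told apart.

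ABCB1, P-glycoprotein, pumps many lipophilic drugs out of cells. It read 9.52, 9.82 and 8.97 on Aa arrays at 24 h, against 9.77, 10.07 and 9.43 on control arrays, and 9.15, 9.63 and 8.89 on Aa arrays at 48 h, against 9.72, 10.07 and 9.18 on control arrays. Groups overlapped at both times, although each numbered pair had the lower value on the Aa side. The differences of -0.32 and -0.43 had limma adjusted p-values of 0.463 and 0.262, and with the replicate number in the model 0.01 and 0.00153. A second ABCB1 probe set differed by 0.13 and -0.08. One that also matches ABCB4, a phosphatidylcholine transporter of liver, differed by -0.37 at each time (adjusted p = 0.339 and 0.295).

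ABCC1 (MRP1) exports glutathione conjugates. It averaged 7.66 ± 0.20 on Aa arrays and 7.99 ± 0.11 on control arrays at 24 h, and 7.79 ± 0.08 on Aa arrays and 8.05 ± 0.08 on control arrays at 48 h (SD, n = 3 each). The groups were apart at 48 h only. The differences, -0.33 and -0.26, missed the threshold (limma adjusted p = 0.0599 and 0.0936) and were called with the replicate number in the model (adjusted p = 0.023 and 0.0442).

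ABCC5 (MRP5), an exporter of cyclic nucleotides and folates, differed by 0.25 at 24 h and -0.09 at 48 h and was not called (limma adjusted p = 0.342 and 0.719). A dim ABCC5 probe set, of mean 4.63, read 5.45, 5.28 and 5.70 on Aa arrays at 24 h, against 3.55, 4.90 and 3.99 on control arrays, and rose by 1.33 (adjusted p = 0.00966). At 48 h it read 3.97, 4.53 and 4.36 on Aa arrays, against 4.90, 4.57 and 4.33 on control arrays, a difference of -0.31 (adjusted p = 0.462). The difference between the effects at 48 h and 24 h was -1.65 and was not called (adjusted p = 0.149, with 0.373% of all probe sets called). ABCC10 (MRP7) differed by -0.51 at 24 h (adjusted p = 0.27, with the replicate number in the model 0.0475) and by 0.21 at 48 h.

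The mitochondrial and related transporters of subfamily B showed 1 call, ABCB6 at 48 h, among the 3 of 4 listed genes measured (33.3%, against 37.8% of all genes). ABCB6 has been linked to porphyrin transport in the outer mitochondrial membrane and in lysosomes. It read 7.08, 7.32 and 7.23 on Aa arrays at 48 h, against 6.90, 6.56 and 6.93 on control arrays, with no overlap. At 24 h it read 7.30, 7.14 and 6.84 on Aa arrays, against 7.42, 7.41 and 7.27 on control arrays. The difference was 0.41 (SE 0.14, 1.33-fold, limma adjusted p = 0.0394) at 48 h and -0.28 (adjusted p = 0.183) at 24 h.

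The ABCB6 control arrays of 48 h and 24 h were apart as well. The 48 h controls were 0.57 lower than the 24 h controls (limma adjusted p = 0.0953, with the replicate number in the model 0.025), while the Aa means were 7.21 at 48 h and 7.09 at 24 h. The difference between the 2 effects was 0.69 (SE 0.20, adjusted p = 0.152). A second ABCB6 probe set, of mean 4.10 and just inside the filter, differed by -0.13 and -0.19. Leaving out replicate 1, 2 or 3 from all groups gave adjusted p-values of 0.0916, 0.32 and 0.082 at 48 h.

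ABCB10, an inner mitochondrial membrane transporter needed for haem synthesis, differed by 0.46 at 24 h with all Aa arrays above all control arrays, but was not called (limma adjusted p = 0.0625, with the replicate number in the model 0.0102), and by 0.12 at 48 h. ABCB8, another transporter of the inner mitochondrial membrane, read 4.98, 4.81 and 4.82 on Aa arrays at 24 h, against 6.65, 4.82 and 5.34 on control arrays. The control arrays of replicates 1 and 3 lay above every Aa array and that of replicate 2 among them, and the difference of -0.73 was not called (adjusted p = 0.192). ABCB9, a lysosomal peptide transporter, differed by 0.00 and 0.19.

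In subfamily D, ABCD4 rose and ABCD3 did not. ABCD4 helps move vitamin B12 out of lysosomes. It read 8.72, 7.93 and 8.28 on Aa arrays at 24 h, against 7.25, 7.69 and 7.59 on control arrays, and 8.80, 8.79 and 8.62 on Aa arrays at 48 h, against 7.67, 7.90 and 7.57 on control arrays. Aa arrays were above control arrays throughout, and those of 24 h were the more scattered. The difference was 0.80 (SE 0.19, 1.75-fold, limma adjusted p = 0.0113) at 24 h and 1.02 (SE 0.19, 2.03-fold, adjusted p = 0.00201) at 48 h. ABCD4 is read by 1 probe set. At 24 h the adjusted p was 0.171 without replicate 1, where the difference was 0.47, and 0.111 without replicate 3.

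ABCD3 (PMP70), which imports fatty acyl-CoA into peroxisomes, averaged 11.46 ± 0.19 on Aa arrays and 11.44 ± 0.05 on control arrays at 24 h, and 11.51 ± 0.10 on Aa arrays and 11.48 ± 0.08 on control arrays at 48 h (SD, n = 3 each). The difference was 0.02 (95% interval -0.22 to 0.26) and 0.03 (-0.21 to 0.27). ABCD2 was below the filter.

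Of the 4 genes of subfamilies E and F, 2 rose at 48 h (50%, against 37.8% of all genes) and none was called at 24 h (against 23.1%). Under the replicate block 1 was called at 24 h (25%, against 41.3%) and 3 at 48 h (75%, against 54.8%), all higher. ABCF1, which aids translation initiation, read 10.21, 10.09 and 10.40 on Aa arrays at 48 h, against 9.83, 9.56 and 9.92 on control arrays. ABCF3, a soluble cytoplasmic member, read 7.67, 7.67 and 7.99 on Aa arrays at 48 h, against 7.25, 7.04 and 7.37 on control arrays. Groups were apart for both genes. ABCF1 differed by 0.46 (SE 0.14, 1.38-fold, limma adjusted p = 0.022) and ABCF3 by 0.56 (SE 0.20, 1.47-fold, adjusted p = 0.0439). The ABCF1 mean at 24 h and 48 h was 10.24 and 10.23 in Aa cells, and 10.04 and 9.77 in control cells. That of ABCF3 was 7.82 and 7.78 in Aa cells, and 7.51 and 7.22 in control cells. Limma called neither control change (adjusted p = 0.339 and 0.463). At 24 h the differences between Aa and control were 0.20 for ABCF1 (adjusted p = 0.333, with the replicate number in the model 0.0356) and 0.31 for ABCF3 (adjusted p = 0.299).

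Both calls were lost without replicate 1 and without replicate 3, and that of ABCF3 also without replicate 2. Without replicate 1 the limma adjusted p at 48 h was 0.151 for ABCF1 and 0.111 for ABCF3, and without replicate 3 it was 0.0843 and 0.215. Without replicate 2 that of ABCF3 was 0.051. ABCE1, which splits ribosomes after termination, differed by -0.13 and -0.04. ABCF2, a cytoplasmic relative of ABCF1, differed by -0.02 and 0.24 (adjusted p = 0.38 at 48 h, with the replicate number in the model 0.0107).

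**Figure D3:**
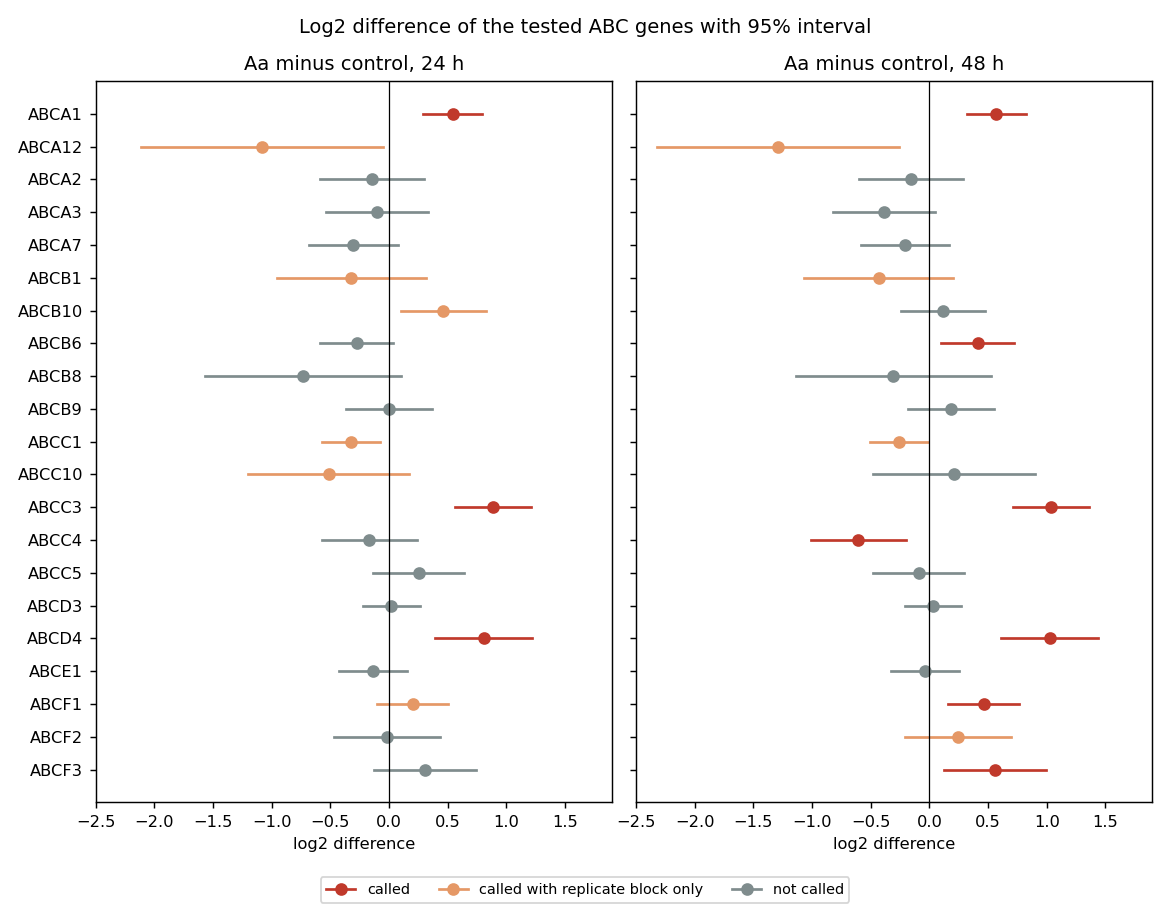
Log2 difference, Aa minus control, with its 95% interval for the 21 ABC genes tested, at 24 h (left) and 48 h (right). Separate colours mark genes that limma called, genes called only with the replicate number in the model, and genes not called. ABCA1, ABCC3 and ABCD4 are called at both times, and ABCA12 has the widest interval to the left of 0.

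Between control cells at 48 h and at 24 h none of the members was called by limma, against 0.5% of all genes, and 2 had an unadjusted p under 0.05 (ABCA1 with 0.0447 and ABCB6 with 0.00196). The 48 h and 24 h control arrays did not overlap for 2 of 21 genes, ABCB6 and ABCF3 (9.52%, against 23.1% of all genes). With the replicate number in the model ABCA12 was higher and ABCB6, ABCE1, ABCF1 and ABCF2 were lower at 48 h (17.8% of all genes called).

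The 21 genes below the filter came from subfamilies A, B, C, D and G. Subfamily A had 5 of 11 genes tested, B 5 of 8, C 5 of 11, D 2 of 3, E 1 of 1, F 3 of 3 and G none of 5. Their brightest probe sets had means of 2.05 to 3.05, so a change in them could not be read. Other genes below the filter were ABCB4, ABCB5 and ABCB11 of subfamily B, ABCC8, ABCC9, ABCC11, ABCC12 and ABCC13 of subfamily C. The member probe set just outside the filter was one of ABCB9, of mean 3.93.

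Of the 21 members tested, 11 had several probe sets past the filter, and these had the same sign for 7 genes at 24 h and for 7 at 48 h. For the other 10 genes a single probe set gave the value.

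The family's relatives outside the ABC naming were also read. TAP1 and TAP2, the paired ABC proteins that load peptides for class I antigen presentation, both rose. Of all genes tested 23.1% were called at 24 h and 37.8% at 48 h. TAP1 was higher by 0.56 (limma adjusted p = 0.0123) at 24 h and 1.06 (adjusted p = 0.000267) at 48 h, and TAP2 by 1.03 (adjusted p = 0.00164) and 1.53 (adjusted p = 0.000108). CFTR, the chloride channel of subfamily C, was below the filter with a mean of 2.79.

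Among 10 partner genes of ABC proteins 9 were tested and 1 was called at each time (11.1%, against 23.1% of all genes at 24 h and 37.8% at 48 h). PEX19, which brings membrane proteins to the peroxisome, fell by 0.95 (limma adjusted p = 0.000847) at 24 h and by 0.79 (adjusted p = 0.00127) at 48 h. With the replicate number in the model none was higher and 2 were lower at 24 h, and 1 was higher and 1 lower at 48 h (22.2% each time, against 41.3% and 54.8% of all genes). Of 14 regulators of ABC genes 10 were tested, with 1 rise at 24 h (10%, against 23.1% of all genes) and 2 at 48 h (20%, against 37.8%). The replicate block gave 5 rises at 24 h (50%, against 41.3%) and 5 rises and 1 fall at 48 h (60%, against 54.8%). KEAP1, which holds NRF2 for degradation, was higher by 0.66 (adjusted p = 0.0383) and 0.77 (adjusted p = 0.0134). MYLIP, a liver X receptor target that degrades the LDL receptor, was higher by 1.15 at 48 h (adjusted p = 0.00228). NFE2L2, which encodes NRF2, differed by 0.49 (adjusted p = 0.17) and 0.30 (adjusted p = 0.35), and NR1H3, which encodes a liver X receptor, by 0.20 (adjusted p = 0.431) and 0.44 (adjusted p = 0.065). Under the replicate block limma called NFE2L2 at both times (adjusted p = 0.0035 and 0.0225) and NR1H3 at 48 h (adjusted p = 0.0429). RXRA, the partner receptor of liver X receptors, gave the fall: it differed by 0.40 at 24 h (adjusted p = 0.176, blocked 0.0137) and -0.49 at 48 h (adjusted p = 0.0757, blocked 0.00361).

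The 4 genes that span over 150 kb in GRCh38.p14, namely ABCC4 (281.6 kb), ABCB1 (210.3 kb), ABCA12 (207.1 kb) and ABCC1 (193.9 kb), had negative differences at both times, of which only that of ABCC4 at 48 h was called. The next longest, ABCA1 (147.15 kb), rose at both times, and ABCD3 (133.5 kb) after it differed by 0.02 and 0.03. Of the other 17 genes, these included, 9 were negative at 24 h and 6 at 48 h. Across the 21 genes Spearman's rho of span and difference was -0.16 at 24 h and -0.56 at 48 h. The genes share the same 12 arrays and are not independent replicates, and the limit of 150 kb was set after the values were seen. A relation to gene length was already known from earlier results on these arrays, so these values are no independent support for it.

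**Figure D4:**
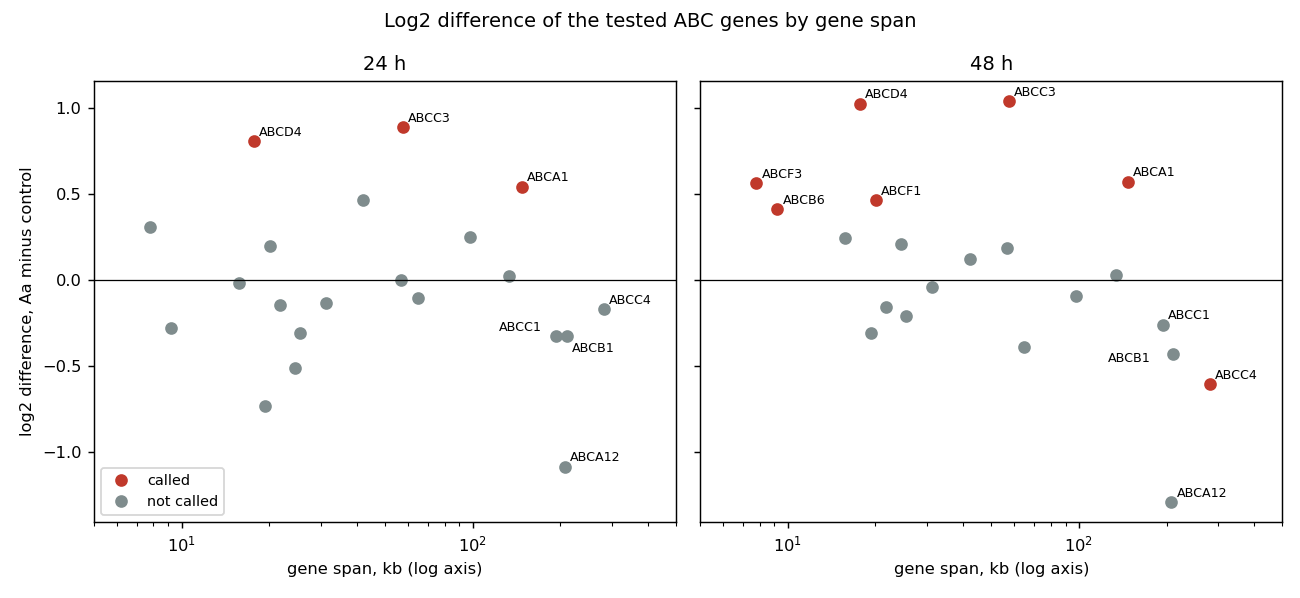
Log2 difference, Aa minus control, of the 21 ABC genes tested against gene span in kb (log axis), at 24 h and 48 h, with called genes in red. The 4 genes over 150 kb lie below 0 in both panels, and ABCA1, just under that span, lies above 0.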

How the data were processed

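Total RNA was read on 12 Affymetrix arrays, 4 groups of 3 from HK-2 cells. The deposited values are log2 intensities, normalised with GCRMA per the submitters' processing notes (version not stated). They run from 0.817 to 16.25, and this summary pulls low signals towards a common floor, which can understate changes of dim genes. Background, array normalisation and probe summaries are the authors'. No value column was left unused (0).

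Of 54675 probe sets (62 controls), 41091 mapped to 1 gene symbol through the array annotation, 1801 to several (not used, other than the ABCB4 and ABCB1 one named), and 11777 had no entry. Of the 41091, 41037 took their symbol from the GRCh38.p14 gene table, whether it changed or not, and 54 were not found there. Probe sets with a mean of at least 4 were kept, and each gene was read from its brightest one. The 4 group means were fitted with limma 3.58.1 in R 4.3.3 (lmFit and eBayes, 8 residual and 2.76 prior degrees of freedom) over all 10791 genes, two-sided, with Benjamini-Hochberg adjustment. Probe sets were adjusted over the 22515 past the filter. The code was tested on simulated data.

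Every member was named. Values on all arrays are given for called genes and for those the text turns on. Members and lists (drug efflux, cholesterol, mitochondrial, subfamilies E and F, relatives, partners, regulators, cell type markers) were chosen with earlier results of these data known. Same-numbered arrays deviated together (18 pairs, r 0.35 to 0.62, against -0.49 to -0.01 in 36 other pairs), so a pairing is read from the data, and a fit with the replicate number was an alternative. The others were the filter, array scaling, choice of probe sets, the limma variant, arrays left out and separate fits per comparison. The number of arrays limits the precision.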

Additional observations from a re-analysis of the deposited data

Results flagged for a closer look

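For ABCB6 the Aa array was below the control array in all 3 numbered pairs at 24 h and above it in all 3 at 48 h. The effect at 48 h minus that at 24 h was 0.69 on the log2 scale, and the limma interaction missed the threshold (adjusted p = 0.152, with the replicate number in the model 0.0556). For ABCC5 the Aa array was above the control array in all 3 pairs at 24 h and below it in all 3 at 48 h. In the replicate 2 pair the difference was close to none, 0.007 at 24 h and -0.023 at 48 h. The effect at 48 h minus that at 24 h was -0.34, and the limma interaction was not called (adjusted p = 0.562, with the replicate number in the model 0.219). The share of all genes whose pairs changed sign in this way was not counted.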

How the results depend on the processing

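In the main fit 2494 of all 10791 genes were called at 24 h and 4083 at 48 h. The count of ABC genes called was 3 at 24 h and 7 at 48 h, of 21 tested. With the replicate number as a block it was 9 and 11, and 5 for the controls over time, where it was otherwise 0. Besides the genes for which a blocked result is given above, the block changed no other call among the members. Without probe sets whose names end in _s_at, _x_at or _a_at the count at 24 h was 1 of 12 members tested. Of all genes, 2030 of 7933 were called. The call was none of ABCA1, ABCC3 and ABCD4 but ABCC5, then read from its dim probe set of mean 4.63. ABCA1, from its second probe set, differed by 0.35 (limma adjusted p = 0.0870), and ABCD4 had no such probe set left. ABCC3, then read from another of its probe sets, differed by -0.047 at 24 h and -0.11 at 48 h, the reverse of its rise. At 48 h the count was 4 of 42 members with no filter on the mean value, where 3620 of 19775 genes were called. It was 4 of 21 with only the arrays of the groups compared, where 3199 of 10791 genes were called. Leaving out replicate 1, 2 or 3 from all groups gave 0 to 4 calls at 24 h and 2 to 6 at 48 h. The lowest both times came without replicate 1, where 536 of 10791 genes were called at 24 h and 1549 at 48 h. These fits have fewer arrays. The difference between times had 0 calls under each alternative run, and could not be fitted with only the arrays of 1 comparison. The 10 called differences had 137 values under alternatives. Of these 135 kept their direction, 108 kept the call, 27 lost it and 2 reversed. The filter, the adjustment over probe sets, the limma variants, the replicate block and the separate fits cannot change a member's difference. In those settings the direction was fixed in advance, and only the call could change. The adjusted p of ABCB6 at 48 h ran between 0.032 and 0.488 and was called in 7 of 14 settings, and that of ABCA12 at 48 h was under the threshold in 7 of 14. For the losses other than those of the probe set choice and the left-out arrays the cause was not tested. A member with a mean near 4 is close to the floor of these arrays, which limits what can be read from it.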
